A study of Mus musculus with 36 samples.

Results

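The expression of 10 immediate early genes was followed in RNA from 36 libraries of mouse embryonic fibroblast (MEF) cells. The 10 genes, Fos, Fosb, Fosl1, Jun, Junb, Egr1, Egr2, Ier2, Myc and Atf3, were taken by their symbols from the 54842 genes that were counted. The cells came from 2 lines that carry a dCas9 component under a doxycycline-inducible promoter, together with a guide RNA that directs it to the major satellite repeats (MSR) of pericentric heterochromatin. In the MSR-dCas9-Control line dCas9 carries no effector. In the MSR-dCas9-Activator line it is fused to VPR, a strong transcriptional activator. Both lines were made by transposon insertion and hygromycin selection and were kept as mixed cultures, so neither is 1 clone. Cells of each line were taken before induction (uninduced), at the end of induction (doxycycline, 10 ng/ml), and then 3, 6, 12 or 24 h past a wash with PBS and a change to fresh medium free of doxycycline. Each of the 12 groups had 3 replicates. The induction lasted 24 h in MSR-dCas9-Control cells but 6 h in MSR-dCas9-Activator cells, so that at induction and after it the effector and the length of exposure cannot be told apart. The lines are called Control and Activator below.

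Immediate early genes are switched on within minutes of a growth factor, serum or stress signal, without a need for new protein synthesis, and most of their mRNAs are short-lived. In fibroblasts the classic route runs from growth factor receptors through the MAP kinases to the serum response factor (SRF) and its ETS-family partners, which bind CArG boxes in the promoters of these genes. FOS and JUN family proteins pair as the AP-1 transcription factor, EGR1 and EGR2 are zinc finger factors, MYC drives growth and ribosome production, and ATF3 is a stress-responsive member of the ATF/CREB family.

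The promoter stretches below are shown so that the promoter elements of genes from 1 class can be set beside values that, as described below, took different directions in the Activator line. RefSeq promoter sequences (GRCm38.p6) were at hand for 6 of the 10 genes. Each line gives bases 110 to 11 before an annotated start, 5′ to 3′ on the strand of the gene, with motif matches on either strand in capitals. For Egr2, 2 of its 5 listed starts are shown.
Fos (chr12:85473780-85473879, plus strand): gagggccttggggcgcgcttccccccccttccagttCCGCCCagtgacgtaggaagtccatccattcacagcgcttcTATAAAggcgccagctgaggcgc
Fosb (chr7:19310056-19310155, minus strand): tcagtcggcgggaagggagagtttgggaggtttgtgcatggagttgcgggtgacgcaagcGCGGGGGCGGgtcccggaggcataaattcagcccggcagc
Jun (chr4:95052233-95052332, minus strand): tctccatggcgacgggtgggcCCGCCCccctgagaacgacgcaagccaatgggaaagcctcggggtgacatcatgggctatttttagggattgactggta
Junb (chr8:84978759-84978858, minus strand): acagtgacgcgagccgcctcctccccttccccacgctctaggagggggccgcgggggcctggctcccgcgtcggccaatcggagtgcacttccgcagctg
Egr2, start at base 67537566 (chr10:67537456-67537555, plus strand): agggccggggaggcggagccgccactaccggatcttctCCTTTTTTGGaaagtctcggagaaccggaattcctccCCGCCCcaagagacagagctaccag
Egr2, start at base 67537869 (chr10:67537759-67537858, plus strand): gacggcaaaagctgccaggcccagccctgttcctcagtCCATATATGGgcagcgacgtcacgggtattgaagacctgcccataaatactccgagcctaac
Atf3 (chr1:191183344-191183443, minus strand): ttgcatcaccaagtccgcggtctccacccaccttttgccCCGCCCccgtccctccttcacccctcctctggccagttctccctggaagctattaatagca
The motifs searched in the 250 bases before each start were the CArG box, TGACGTCA (the CRE), TGACTCA (the AP-1 site), GCGTGGGCG and GCGGGGGCG (EGR sites), TATAAA (the TATA box), GGGCGG (the GC box) and CACGTG (the E-box). A CArG box, searched as CC, 6 bases A or T, then GG, was found before 4 of the 5 Egr2 starts. It was found before no other start searched, whereas 1.48% of all 32536 promoters hold one. Boxes farther upstream or of looser sequence were not searched for, and Egr1, Fosl1, Ier2 and Myc had no promoter sequence. A gene without a match here may thus still have such a box. The windows of Egr2 starts 3, 4 and 5 overlap and hold the same box, so that there are 2 distinct ones, both printed above. The Fos promoter held TATAAA 33 to 28 bases before the start, a motif found in 12.3% of promoters. The Fosb promoter held GCGGGGGCG 50 to 42 bases before the start, as 2.60% of promoters do, and its last bases overlap a GC box. The farthest upstream Egr2 start had a CACGTG 27 to 22 bases before it, where 6.04% of promoters hold that motif. The GC box, present in 33.0% of promoters, was found in Fos, Fosb, Jun, Egr2 and Atf3. TGACGTCA, TGACTCA and GCGTGGGCG, held by 1.56%, 4.45% and 0.541% of promoters, were not in these windows, and Junb matched no motif. A match is only a match of letters.

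**Figure D1:**
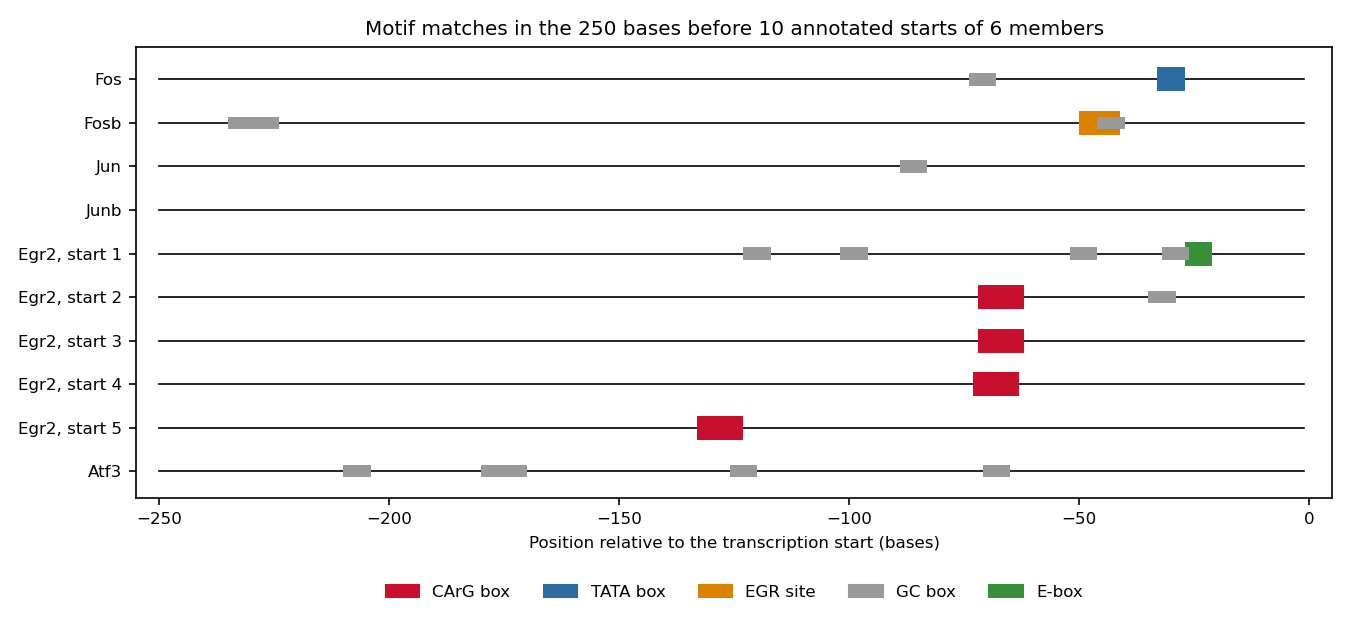
Positions of motif matches (coloured boxes) in the 250 bases before 10 annotated starts of 6 of the genes, with the distance from the start in bases on the x axis and each start on a line of its own. CArG boxes (red) are seen only before Egr2 starts 2 to 5, the TATA box (blue) only before Fos and the EGR site (orange) only before Fosb.

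Libraries held 27376846 to 57371803 gene counts, with a median of 42865961. All 10 genes passed the filter on low counts and averaged over 100 normalised counts. Egr2 was the least covered, with 25 to 489 counts per library, and Egr1 the most, with 2207 to 22405. Levels below are TMM-normalised counts expressed as CPM, the share of a library that fell on a gene. Fibroblast markers were high in both lines, with summed levels of 23134 to 35865 CPM in Control and 11253 to 35319 CPM in Activator. Their summed level overlapped between the lines up to 6 h and was lower in every Activator library later, with means of 17628 against 23816 CPM at 12 h and 14621 against 25937 CPM at 24 h. Markers of 4 other cell types were low: epithelial markers summed to at most 4.26 CPM, leukocyte markers to at most 26.3 CPM and neural markers to at most 71.5 CPM in any library, and endothelial markers to at most 1.95 CPM in Control and 47.4 CPM in Activator. At 0 in every Control library were Krt5 (epithelial), Adgre1 and Cd3e (leukocyte) and Olig2 (neural). In Activator no marker was at 0 in every library. There the endothelial sum averaged 2.79 CPM before induction and 27.9 CPM at induction, then 45.6 CPM at 12 h and 33.2 CPM at 24 h. The endothelial sum held 3 of 6 markers above 1 CPM on average in Activator, and the part of other cell types in the results was not tested. In bulk RNA, fewer cells of a type and less RNA per cell cannot be told apart. The major satellite transcript GSAT_MM took 0.189% to 2.78% of counts in Activator libraries from induction on, and was lowest among the induced libraries in replicate 2 (0.189%) and highest in replicate 3 (1.79%). It took at most 0.00804% in the uninduced Activator libraries and 0.00396% in Control.

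**Figure D2:**
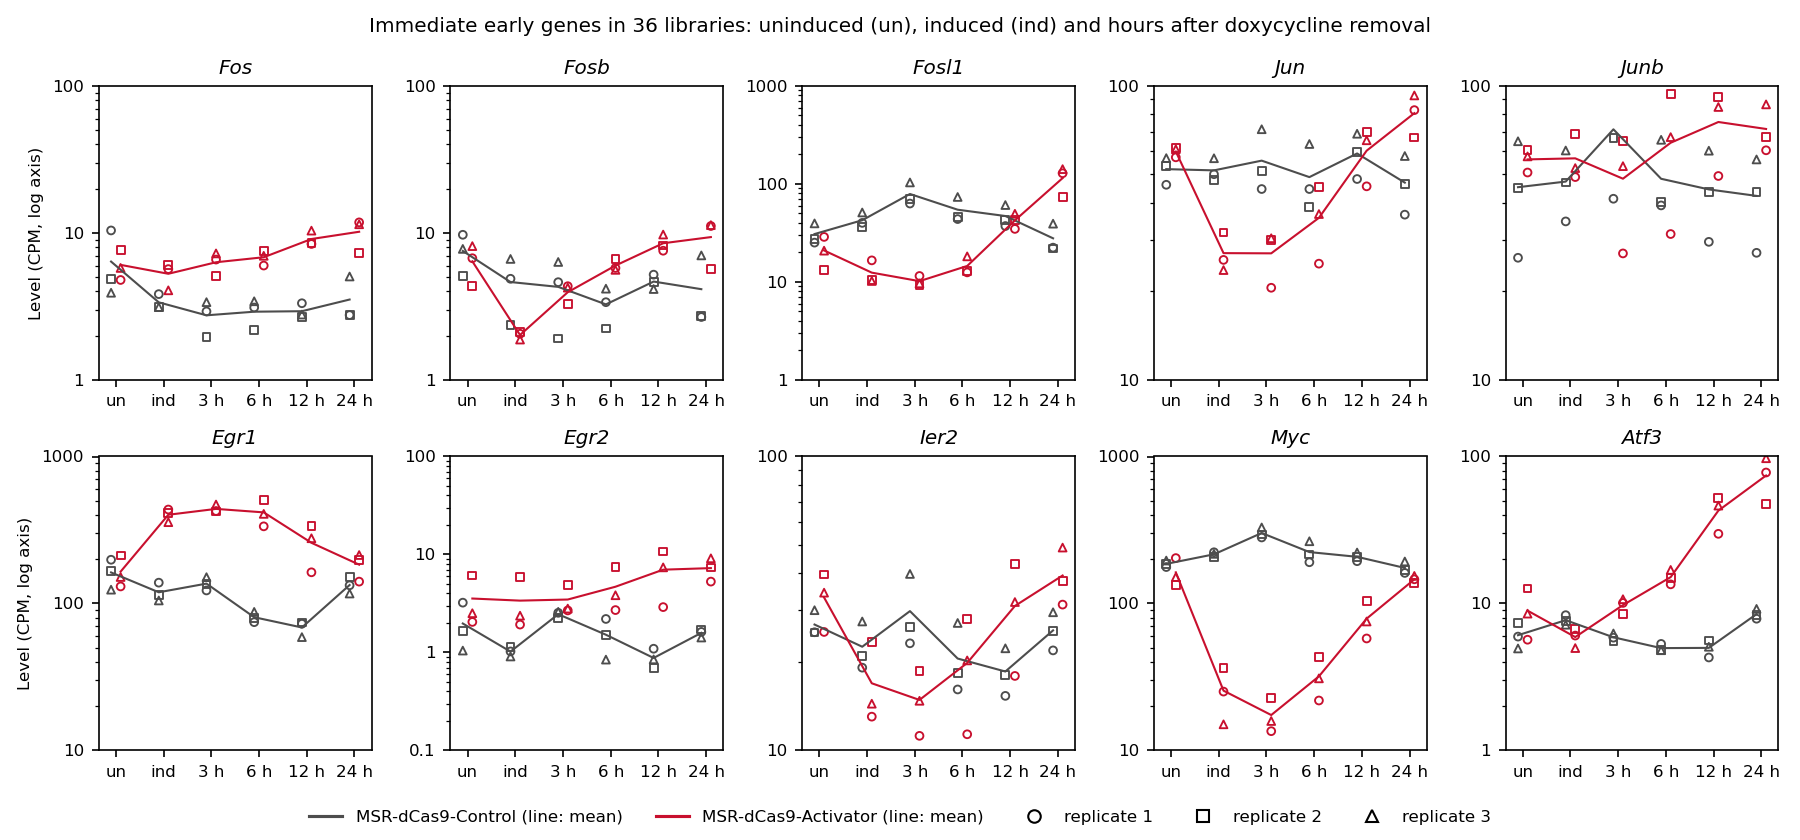
Level of each immediate early gene (CPM, log axis) against the time point, uninduced (un), induced (ind) and 3 to 24 h after doxycycline removal, in Control (grey) and Activator (red) cells. Symbols are the 3 replicates and lines join the group means. Myc dips from 163 CPM to 17.4 CPM in Activator and is back at 146 CPM at 24 h, while Egr1 peaks early and Atf3 and Fosl1 are highest at 24 h.

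Before induction none of the 10 genes was called in Activator against Control, where 0.214% of all 28536 genes tested were. The log2 differences ran from -0.54 ± 0.24 (Fosl1) to 0.68 ± 0.44 (Egr2). An unadjusted p under 0.05 in edgeR was found for 2 members, Fosl1 and Atf3, with no share of all genes given at that threshold. DESeq2 called none, and Egr2 was called without replicate 1 of all groups, at 1.63. A gene was called when its Benjamini-Hochberg adjusted p in edgeR's quasi-likelihood test was under 0.05, its fold change over 2 and its mean normalised count over 100. At induction 2 genes were called higher in Activator (Egr1, Egr2) and 3 lower (Fosb, Fosl1, Myc), against 8.48% of all genes called. At 3 h 2 were higher (Fos, Egr1) and 4 lower (Fosl1, Jun, Ier2, Myc), against 12.8%. At 6 h 4 were higher (Fos, Egr1, Egr2, Atf3) and 2 lower (Fosl1, Myc), against 13.9%. At 12 h 4 were higher (Fos, Egr1, Egr2, Atf3) and 1, Myc, lower, against 15.2%. At 24 h 5 were higher (Fos, Fosb, Fosl1, Egr2, Atf3) and none lower, against 7.46%. Among the 13628 genes with a mean over 100, as the 10 have, 17.8% were called at induction and 26.9% at 3 h, then 29.1% at 6 h, followed by 31.8% at 12 h and 15.6% at 24 h. The median log2 difference of the 10 genes moved from -0.41 at induction to 1.00 at 24 h, while that of all genes stayed between 0.01 and 0.16. Scaling to the 13 mitochondrially encoded mRNAs, in place of TMM, moved the median of all genes to -0.25 at induction and -0.44 at 3 h, then to -0.58 at 6 h, followed by -0.49 at 12 h and -0.18 at 24 h. The split of the calls moved with it, to 1 member higher against 5 lower at 3 h. At 6 h it was 1 higher against 3 lower. That scaling called 5804 genes at 3 h and 6865 at 6 h, where TMM called 3663 and 3960. With DESeq2 size factors 2 members were higher and 2 lower at 3 h, where 3499 genes were called. Nothing particular to the members is read from these splits. All 3 Activator libraries lay above the Control libraries for 3 members and below them for 5 at induction, where 57.9% of all genes did not overlap, and above for 7 and below for 1, Myc, at 24 h, where 61.6% did not. At 3 h they lay above for 4 members and below for 4, where 71.4% of all genes did not overlap. At 6 h these were 5 and 2, beside 69%, and at 12 h 5 and 1, beside 73.5%.

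**Figure D3:**
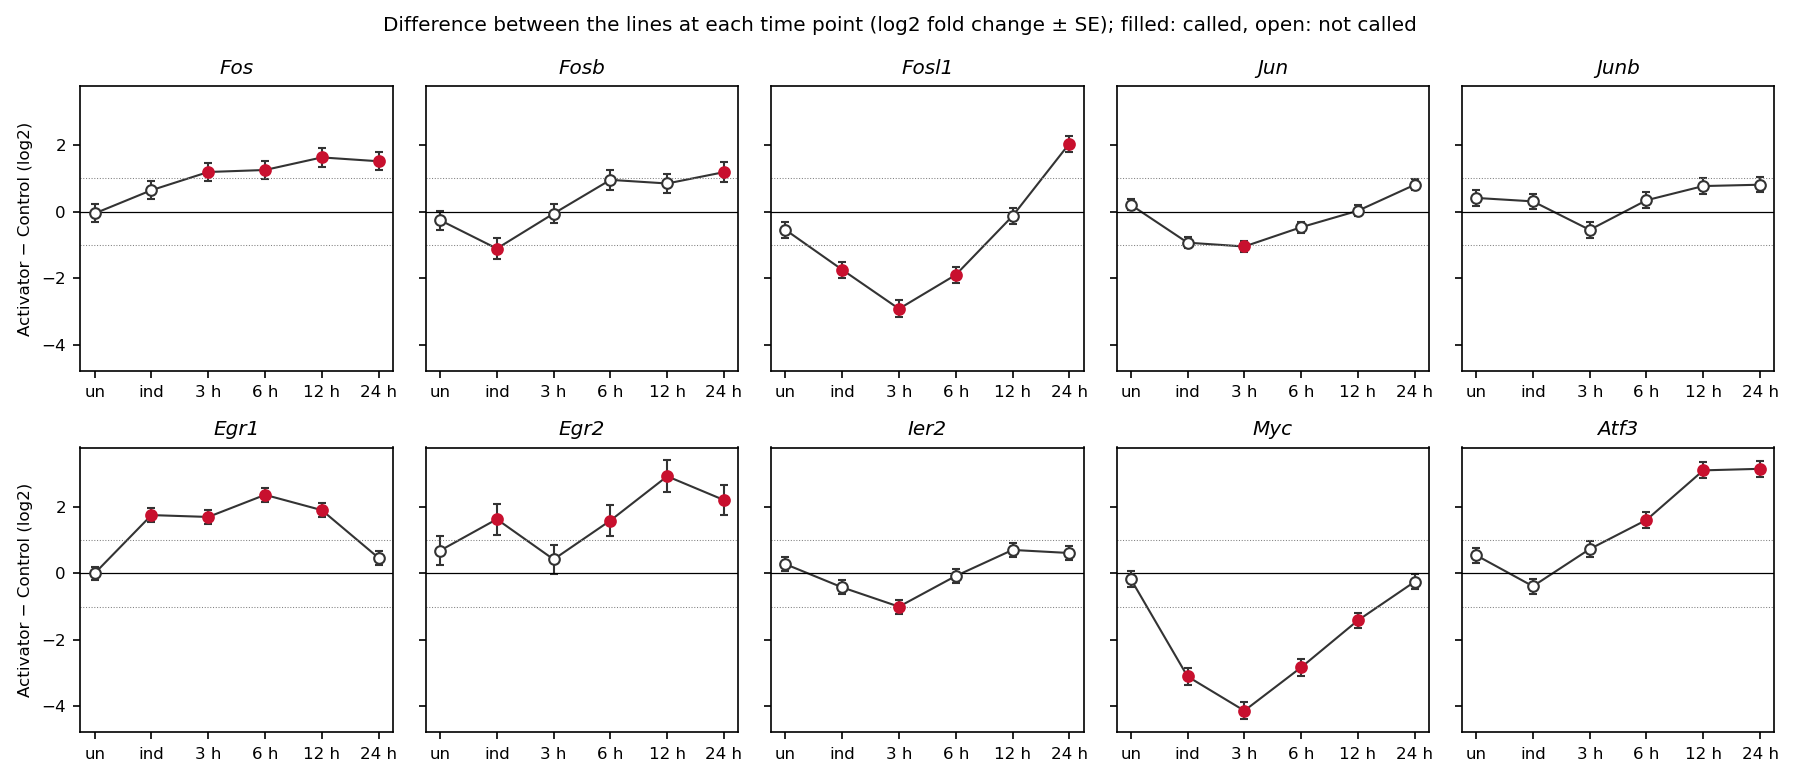
Activator minus Control log2 fold change with its standard error (bars) for each gene at the 6 time points; filled red points were called and open points were not, and dotted lines mark a 2-fold change. Myc, Fosl1 and Jun are lowest at 3 h, at -4.13, -2.92 and -1.04, and Atf3 reaches 3.14 at 24 h.

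The 3 FOS family genes among the members, whose proteins pair with JUN proteins to bind DNA as AP-1, each had their highest Activator mean at 24 h. Fos (chr12:85473890-85477273, plus strand, GRCm38) encodes the founding member. In Control its levels were 10.4, 4.84 and 3.92 CPM before induction, 3.84, 3.15 and 3.13 CPM at induction, and between 1.95 and 5.05 CPM afterwards. In Activator they were 4.79, 7.63 and 5.78 CPM before induction, 5.68, 6.08 and 4.07 CPM at induction, 6.59, 5.11 and 7.26 CPM at 3 h, 6.00, 7.52 and 6.99 CPM at 6 h, 8.42, 8.49 and 10.4 CPM at 12 h, and 11.8, 7.31 and 11.5 CPM at 24 h. From induction on, every Activator library lay above the 3 Control libraries of its time point. The log2 difference was 0.65 ± 0.28 (SE, n = 3 against 3, adjusted p = 0.0485, under the fold limit) at induction, 1.19 ± 0.28 (adjusted p = 0.000485) at 3 h, 1.25 ± 0.28 at 6 h, 1.63 ± 0.28 (adjusted p = 7.92e-06) at 12 h and 1.52 ± 0.28 at 24 h. Within Activator the change from uninduced to 24 h was 0.71 ± 0.27 and was not called (adjusted p = 0.0225). It would be without uninduced replicate 2, at 1.02. Scaling to the 13 mitochondrially encoded mRNAs reduced the difference to 0.58 at 3 h and 0.57 at 6 h and ended both calls.

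Fosb (chr7:19302696-19310051, minus strand), a close relative of Fos, was low at induction in Activator, at 2.06, 2.12 and 1.88 CPM against 4.88, 2.37 and 6.66 CPM in Control. These groups did not overlap, although Control replicate 2 was near the Activator values. The difference was -1.11 ± 0.31 on the log2 scale (adjusted p = 0.00304), and -0.89 without Control replicate 3 or without Activator replicate 3, which is under the fold limit. It was also not called without replicate 1 (-1.03, adjusted p = 0.0603) or replicate 3 (-0.73) of all groups. Against its own uninduced cells, at 6.73, 4.36 and 8.14 CPM, Fosb fell in Activator by 1.61 ± 0.30 (adjusted p = 5.90e-05). At 6 h the Activator libraries, at 5.78, 6.61 and 5.61 CPM, stood above Control, at 3.38, 2.24 and 4.18 CPM. That difference of 0.96 ± 0.30 and the 0.85 ± 0.29 at 12 h were just under the fold limit. They were called without any of 3 libraries at each time: Control replicate 3 (1.08), Activator replicate 1 (1.11) or Activator replicate 3 (1.21) at 6 h, and Control replicate 2 (1.06), Activator replicate 1 (1.08) or Activator replicate 3 (1.01) at 12 h. With every library kept, both were called by DESeq2 (1.14 and 1.06) and with DESeq2 size factors in edgeR (1.13 and 1.06). With only the compared libraries in the fit they were called too, at 1.04 and 1.01. They were not called with the mitochondrial scaling or with library size alone. At 24 h Fosb was called higher in Activator, at 11.2, 5.66 and 11.3 CPM against 2.68, 2.72 and 7.03 CPM, by 1.19 ± 0.29 (adjusted p = 0.000831). Activator replicate 2 lay below Control replicate 3 there, and without Control replicate 1 the difference was 0.90 and was not called. Nor was it called without replicate 1 of all groups (0.82, adjusted p = 0.102) or with the mitochondrial scaling (0.97).

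Fosl1 (chr19:5447547-5455946, plus strand) encodes FRA-1, an AP-1 member that follows sustained ERK signalling. It changed sign over the course. Control held 25.2, 27.7 and 39.6 CPM before induction, 40.1, 36.7 and 51.2 CPM at induction, and 63.1, 70.4 and 104 CPM at 3 h. It then held 43.8, 46.4 and 73.7 CPM at 6 h, 37.2, 43.1 and 60.9 CPM at 12 h and 22.4, 21.9 and 39.3 CPM at 24 h. In Activator it held 28.8, 13.2 and 20.9 CPM before induction, 16.6, 10.5 and 10.2 CPM at induction, 11.5, 9.39 and 9.67 CPM at 3 h, 12.5, 12.9 and 18.2 CPM at 6 h, 34.8, 43.1 and 49.6 CPM at 12 h, and 129, 74.1 and 142 CPM at 24 h. The Activator libraries were below all Control libraries from induction to 6 h, overlapped them at 12 h, and were above them at 24 h. The log2 difference was -1.74 ± 0.24 at induction (adjusted p = 1.32e-06), -2.92 ± 0.25 at 3 h (adjusted p = 2.37e-10), -1.90 ± 0.24 at 6 h, -0.13 ± 0.23 at 12 h and 2.05 ± 0.24 at 24 h (adjusted p = 7.70e-08). At 24 h Fosl1 stood 2.43 ± 0.24 above uninduced Activator cells on that scale. The fall from uninduced to induced Activator cells, -0.72 ± 0.24, was under the fold limit. It was called without induced replicate 1, at -1.05, and with the mitochondrial scaling, at -1.29. The Fosl1 locus shares exon bases with Ccdc85b on the other strand, and since the strand setting of the counting is not stated, reads of the pair may not be separated.

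Of the JUN family, which can pair with FOS proteins or with each other, Jun changed more than Junb. Jun (chr4:95049034-95052222, minus strand) was between 36.5 and 71.3 CPM in the 18 Control libraries. In Activator it went from 57.2, 61.4 and 60.9 CPM before induction to 25.6, 31.7 and 23.6 CPM at induction and 20.6, 29.9 and 30.3 CPM at 3 h, then to 82.8, 66.8 and 92.9 CPM at 24 h. All Activator libraries lay below Control at induction and at 3 h and above it at 24 h, and the groups overlapped at 6 h and 12 h. Jun fell from uninduced to induced Activator cells by 1.14 ± 0.17 on the log2 scale (adjusted p = 1.59e-06), or by 0.97 without induced replicate 3, under the fold limit. Against Control it was called lower at 3 h, by -1.04 ± 0.17 (adjusted p = 2.95e-06), a call lost without Control replicate 3 (-0.93), without Activator replicate 1 (-0.94), and with DESeq2 size factors (-0.91). That call was also lost with DESeq2 itself (-0.91) and with only the compared libraries in the fit (-0.94). The same held without replicate 2 (-0.97) or replicate 3 (-0.94) of all groups. At induction the difference was -0.93 ± 0.17 (adjusted p = 2.58e-05), and reached -1.004 without Control replicate 2, -1.001 without Activator replicate 1 and -1.01 without Activator replicate 2. At 24 h it was 0.81 ± 0.16 (adjusted p = 0.000109) and under the fold limit. With the mitochondrial scaling Jun was called lower also at induction (-1.29) and at 6 h (-1.15). Jun overlaps the antisense gene Junos, whose level over the 12 group means followed that of Jun with a Pearson r of 0.982, and the pair may share reads.

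Junb (chr8:84974484-84978718, minus strand), often an antagonist of Jun in cell growth, was called at no time point. Its log2 difference ran from -0.54 ± 0.23 at 3 h to 0.81 ± 0.23 at 24 h (adjusted p = 0.00398). Without replicate 2 of all groups Junb was called at 24 h, at 1.01, as Jun was, at 1.05. Replicates spread widely: at 6 h Activator held 31.4, 94.0 and 67.0 CPM and Control 39.2, 40.2 and 65.6 CPM. Scaled to the mitochondrially encoded mRNAs, the difference at 3 h was -1.12 and was called. At 24 h the Activator libraries, at 60.4, 67.2 and 86.6 CPM, stood above the Control libraries, at 27.1, 43.5 and 56.2 CPM. Junb overlaps Prdx2 on the other strand, which has 208383 counts over all libraries against 83456 for Junb, so its values are uncertain.

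The zinc finger gene Egr1 (chr18:34859823-34864984, plus strand), a direct target of SRF, was the member that rose at induction. Control held 198, 165 and 124 CPM before induction, 139, 114 and 105 CPM at induction, 123, 136 and 151 CPM at 3 h, 74.6, 79.6 and 87.6 CPM at 6 h, 72.8, 74.1 and 59.0 CPM at 12 h, and 133, 151 and 117 CPM at 24 h. Activator held 131, 212 and 151 CPM before induction, 436, 411 and 357 CPM at induction, 426, 423 and 471 CPM at 3 h, 335, 508 and 407 CPM at 6 h, 163, 335 and 278 CPM at 12 h, and 141, 197 and 214 CPM at 24 h. From induction to 12 h every Activator library was above the Control libraries of its time point, while before induction and at 24 h the groups overlapped. The log2 difference was 1.75 ± 0.20 at induction (adjusted p = 6.31e-08), 1.69 ± 0.20 at 3 h, 2.36 ± 0.21 at 6 h (adjusted p = 1.96e-10), 1.90 ± 0.20 at 12 h and 0.46 ± 0.20 at 24 h (adjusted p = 0.0446, under the fold limit). Egr1 rose from uninduced to induced Activator cells by 1.30 ± 0.20 (adjusted p = 5.19e-06). Scaled to the mitochondrially encoded mRNAs this was 0.73, under the fold limit, although the 4 differences between the lines from induction to 12 h were still called. Replicate 1 was the lowest Activator library at 6 h, 12 h and 24 h.

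Egr2 (chr10:67535475-67542188, plus strand), the relative of Egr1 known for its part in Schwann cells and lymphocytes, was rare, at 0.694 to 10.7 CPM. Activator replicate 2 stood apart already before induction, at 6.09 CPM against 2.05 and 2.51 CPM. In Control the libraries held 1.02, 1.13 and 0.909 CPM at induction and 1.09, 0.694 and 0.849 CPM at 12 h. Activator held 1.92, 5.84 and 2.37 CPM at induction, 2.90, 10.7 and 7.38 CPM at 12 h, and 5.28, 7.35 and 9.13 CPM at 24 h. From induction on, the Activator libraries were above the Control libraries of the same time. The log2 difference was 1.62 ± 0.47 at induction (adjusted p = 0.00471), 0.42 ± 0.43 at 3 h, 1.58 ± 0.45 at 6 h, 2.91 ± 0.48 at 12 h (adjusted p = 5.64e-06) and 2.20 ± 0.44 at 24 h (adjusted p = 0.000138). Within Activator the change of Egr2 at induction was -0.08 ± 0.42, while in Control, from 3.22, 1.66 and 1.04 CPM in uninduced cells, it was -1.03 ± 0.48, and neither was called. The call between the lines at induction was lost with only the compared libraries in the fit (1.61, where the mean count fell under the limit), without replicate 2 of all groups (1.28), and at 6 h without replicate 2 (1.31) or 3 (1.34) of all groups and with the mitochondrial scaling (0.89). It rose from uninduced to 24 h by 1.14 ± 0.42 (adjusted p = 0.0206). That call was lost without uninduced replicate 1 (0.91), uninduced replicate 3 (1.12, adjusted p = 0.0570) or replicate 3 at 24 h (0.86), and with no replicate block (1.03, adjusted p = 0.0608).

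Ier2 (chr8:84661331-84662852, minus strand), a short growth-factor-induced nuclear protein gene, was lower in Activator at 3 h, at 11.2, 18.6 and 14.8 CPM against 23.1, 26.4 and 39.8 CPM, and the groups did not overlap. The log2 difference was -1.005 ± 0.21 (adjusted p = 0.000136) and lies at the fold limit. It was not called without Control replicate 3 (-0.85), Activator replicate 1 (-0.96) or Activator replicate 3 (-0.88), or with DESeq2 size factors (-0.87). Nor was it called by DESeq2 itself (-0.87) or with only the compared libraries in the fit (-0.89). The call was also lost without replicate 1 (-0.98) or replicate 3 (-0.78) of all groups. From uninduced, at 25.3, 39.7 and 34.4 CPM, to induced Activator cells, at 13.03, 23.3 and 14.4 CPM, the change was -0.97 ± 0.21 (adjusted p = 0.000294). That change was called without uninduced replicate 3 (-1.03) or induced replicate 2 (-1.16). At 12 h and 24 h the differences of 0.70 ± 0.21 and 0.61 ± 0.21 were under the fold limit.

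Myc (chr15:61985391-61990374, plus strand), the growth regulator, changed the most. Control held 177, 185 and 196 CPM before induction, 223, 207 and 218 CPM at induction, 281, 294 and 329 CPM at 3 h, 191, 215 and 265 CPM at 6 h, 194, 207 and 222 CPM at 12 h, and 161, 169 and 193 CPM at 24 h. Activator held 204, 134 and 151 CPM before induction, 25.1, 36.3 and 15.1 CPM at induction, 13.5, 22.9 and 15.9 CPM at 3 h, 21.9, 43.0 and 30.9 CPM at 6 h, 57.8, 103 and 75.4 CPM at 12 h, and 146, 138 and 154 CPM at 24 h. Every Activator library from induction on was below all Control libraries of its time point, by a small margin at 24 h. Myc fell from uninduced to induced Activator cells by 2.71 ± 0.25 on the log2 scale (adjusted p = 2.14e-09). The difference between the lines was -3.10 ± 0.25 at induction (adjusted p = 2.37e-10), -4.13 ± 0.26 at 3 h (adjusted p = 1.42e-12), -2.83 ± 0.25 at 6 h, -1.42 ± 0.23 at 12 h and -0.25 ± 0.23 at 24 h (adjusted p = 0.338). The calls from induction to 12 h held in the alternatives run. The lowest and the highest of the induced libraries, replicate 3 and replicate 2, were those with the highest and the lowest share of GSAT_MM, though at 3 h replicate 1 held both the lowest Myc level and the lowest GSAT_MM share, and the part of GSAT_MM in these levels was not tested.

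Atf3 (chr1:191170296-191218039, minus strand), induced by many kinds of stress, climbed late in Activator. Control stayed between 4.29 and 9.18 CPM in all 18 libraries. In Activator its levels were 5.67, 12.6 and 8.53 CPM before induction, 6.05, 6.71 and 4.97 CPM at induction, 10.1, 8.46 and 10.7 CPM at 3 h, 13.5, 14.9 and 16.9 CPM at 6 h, 29.8, 52.4 and 46.3 CPM at 12 h, and 77.8, 47.7 and 97.3 CPM at 24 h. All Activator libraries were below Control at induction, and above it at every later time. The log2 difference was -0.39 ± 0.23 at induction, 0.73 ± 0.23 at 3 h (adjusted p = 0.00648, under the fold limit), 1.60 ± 0.23 at 6 h (adjusted p = 8.92e-07), 3.09 ± 0.24 at 12 h (adjusted p = 7.68e-12) and 3.14 ± 0.24 at 24 h (adjusted p = 1.69e-11). With the mitochondrial scaling the difference at 6 h was 0.88, under the fold limit. From uninduced to 24 h Atf3 rose in Activator by 3.08 ± 0.23. Beside the late rises of Atf3 and Fosl1, 5 of 12 tested fibroblast markers were lower in Activator than in Control at 24 h, and 7 of 12 fell in Activator from uninduced to 24 h, with a median of -1.30. Of all genes tested, 4.12% and 4.08% were called lower in these 2 comparisons. The part of the lower markers in the rises of Atf3 and Fosl1 was not tested.

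Per kilobase of exon, which allows the genes to be set against each other, the order of the genes differed between groups. In uninduced Control cells Myc stood at 68.4, Egr1 at 36.3, Junb at 19.7, Ier2 at 17.6, Jun at 16.3 and Fosl1 at 15.2 CPM per kb, and Atf3, Fos, Fosb and Egr2 were under 3 CPM per kb. Those from Junb to Fosl1 did not differ beyond their spread. At 3 h Egr1 was at 98.1 and Myc at 6.41 CPM per kb in Activator, and Egr1 was at 30.4 and Myc at 111 CPM per kb in Control. At 24 h in Activator Fosl1, at 56.5 CPM per kb, was close to Myc, at 53.7, and Atf3 had reached 34.5 CPM per kb.

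Fresh medium was added to both lines when doxycycline was removed, a step to which immediate early genes can respond. From induced cells to 3 h after removal no member was called in Control, where 0.035% of all genes were, or in Activator, where 0.606% were. At an unadjusted p under 0.05 the same test found 4 of the 10 genes in Control and 3 in Activator. No share of all genes at that threshold is given, so these counts are not set against the shares above. DESeq2 called no member in either line. In Control the values farthest from 0 on the log2 scale were 1.30 ± 0.48 for Egr2 (adjusted p = 0.455) and 0.88 ± 0.23 for Fosl1 (adjusted p = 0.155), and Myc was at 0.48 ± 0.23. In Activator Fosb was at 0.95 ± 0.31 (adjusted p = 0.0450) and Atf3 at 0.72 ± 0.23 (adjusted p = 0.0419), both under the fold limit. With DESeq2 size factors in edgeR, or without replicate 2 of all groups, Fosb was called, at 1.01 and 1.16. No member was called for a difference between the lines in this step, against 0.158% of all genes. An unadjusted p under 0.05 was found for 5 members, again with no share of all genes given. Atf3, at 1.12 ± 0.32 (adjusted p = 0.116), was called by DESeq2 (1.17), with only the compared libraries in the fit (1.13) and without replicate 2 of all groups (1.33). Fosl1, at -1.18 ± 0.34 (adjusted p = 0.112), was called by DESeq2 (-1.12) and without Activator induced replicate 3 (-1.40), as Myc was without that library (-1.30). The first sample after removal was taken at 3 h, later than the usual peak of an immediate early response.

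Within Control no member was called from uninduced to induced cells, where 0.0561% of all genes were, or from uninduced to 24 h, where 0.109% were. At an unadjusted p under 0.05 the same test found 4 and 3 of the 10 genes, again with no share of all genes given. DESeq2 called no member either. The largest values were -1.03 ± 0.48 (Egr2) and -0.91 ± 0.28 (Fos) at induction. Within Activator 1 member rose (Egr1) and 3 fell (Fosb, Jun, Myc) at induction, against 8.43% of all genes called. With the mitochondrial scaling none rose and 6 fell, Fosl1, Ier2 and Atf3 among them, where 4745 genes were called against 2406 with TMM. From uninduced to 24 h 3 rose (Fosl1, Egr2, Atf3), against 7.2%. The change since uninduced differed between the lines for 4 members at induction, against 7.69% of all genes, for 6 at 3 h, against 12.2%, for 6 at 6 h, against 13.3%, for 6 at 12 h, against 14.4%, and for 4 at 24 h, against 6.34%. These members and values are given in the closing section.

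As background for the lists that follow, 2.78% of all genes tested were called higher and 5.71% lower in Activator at induction, and 3.34% higher and 4.12% lower at 24 h. Among genes with a mean over 100 these shares were 5.81% and 12% at induction, and 6.99% and 8.63% at 24 h. With TMM 2421 genes were called in all at induction and 2128 at 24 h. With the mitochondrial scaling these were 3617 and 2908, and with DESeq2 size factors 2313 and 1868. Of 34 other immediate early and early response genes, 17 were lower and 2 higher at induction, and 1 was lower and 8 higher at 24 h, with medians of -0.99 and 0.57 on the log2 scale. All genes tested had medians of 0.10 and 0.01. With the mitochondrial scaling 22 were lower and 1 higher at induction, and 2 were lower and 6 higher at 24 h. With DESeq2 size factors none was lower and 10 higher at 24 h. At induction the AP-1 gene Fosl2 was lower by -2.69 ± 0.37 and the mRNA decay factor gene Zfp36l1 by -2.66 ± 0.42. The 2 higher genes were Arc, a synaptic plasticity gene, by 5.17 ± 0.38 and Nr4a2, an orphan nuclear receptor gene named here because of the small count, by 1.32 ± 0.21. At 24 h Arc was higher by 4.58 ± 0.36, Ptgs2, which encodes the prostaglandin enzyme COX-2, by 3.32 ± 0.33 and the small MAF gene Maff by 2.40 ± 0.15, while Zfp36l1 was the gene that was lower (-1.09 ± 0.40).

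Of 10 feedback inhibitors of ERK signalling, which are themselves ERK-induced, 6 were lower at induction, with a list median of -1.81. Among them were the phosphatase genes Dusp4 (-2.67 ± 0.30) and Dusp6 (-2.33 ± 0.40) and the inhibitor gene Spry1 (-2.59 ± 0.35). At 24 h none was lower and 1, Spry4, was higher (1.61 ± 0.16). Of 28 growth factor receptor and MAP kinase genes 4 were lower at induction: the receptor gene Pdgfrb (-1.56 ± 0.37), the exchange factor gene Sos1 (-1.10 ± 0.17), and the p38 kinase genes Mapk14 (-1.21 ± 0.14) and, outside the naming rule, Mapk11 (-1.04 ± 0.15). At 24 h 5 were lower: Pdgfrb (-1.88 ± 0.37), Met (-1.47 ± 0.19), Pdgfra (-1.17 ± 0.36) and, outside the naming rule, Igf1r (-1.02 ± 0.13) and Mapk14 (-1.002 ± 0.14). None of the 28 was higher at either time. Beside these 4 and 5 lower genes of 28 stand the 12% and 8.63% called lower among genes with a mean over 100, and nothing particular to the list is read from them. With DESeq2 size factors 3 were lower at each time, and with the mitochondrial scaling 8.

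Of 16 tested transcription factors and cofactors that act on immediate early promoters, Elk3 (-1.13 ± 0.14), an ETS partner of SRF, and Nab2 (-1.69 ± 0.42), a corepressor of EGR proteins, were lower at induction. At 24 h Elk3 (-1.21 ± 0.14), Nab2 (-1.27 ± 0.41) and its relative Nab1 (-1.20 ± 0.12) were lower. These 2 and 3 of 16 stand beside the same shares of 12% and 8.63%. Of 12 partners and antagonists of MYC, Mnt (-1.09 ± 0.18), Mlxip (-1.63 ± 0.14) and Mycl (-1.95 ± 0.21) were lower at induction, and at 24 h Mycl was lower (-1.08 ± 0.20) and the MYC antagonist gene Mxd1 higher (1.98 ± 0.17). With DESeq2 size factors or library size alone Mycl was not called at 24 h. None of 16 MYC target genes was called at induction or at 24 h, and their medians were 0.00 and -0.19. At 6 h 2 were lower, Nop16 (-1.25 ± 0.14) and Rcl1 (-1.27 ± 0.10), and at 12 h 3, Nop16 (-1.35 ± 0.14), Rcl1 (-1.07 ± 0.10) and Ccnd2 (-1.03 ± 0.14), which were named after their values were seen. None was higher at those times. Among genes over the limit on the mean, 21.5% were called lower at 6 h and 22.8% at 12 h. Nothing particular to the list is read from these 2 and 3 of 16.

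Of 13 tested AP-1 and other bZIP partners, 5 were lower at induction, Fosl2, Maf (-1.64 ± 0.52), Mafk (-1.51 ± 0.20) and, outside the naming rule, Jdp2 (-1.28 ± 0.23) and Jund (-1.02 ± 0.36). At 24 h Maff and Mafk (1.199 ± 0.20) were higher and Atf5 (-1.28 ± 0.13) was lower, and with the mitochondrial scaling 1 was higher and 1 lower. Of 16 tested AP-1 target genes, 2 were higher at induction, the collagenase gene Mmp13 (4.04 ± 0.32) and the cytokine gene Il6 (2.26 ± 0.21). The 4 that were lower included the cytokine gene Lif (-2.32 ± 0.26) and, outside the naming rule, Vegfa (-2.18 ± 0.25) and Ccl2 (-2.18 ± 0.26). At 24 h Mmp13 (3.80 ± 0.29), Il6 (3.59 ± 0.23) and the haem oxygenase gene Hmox1 (1.55 ± 0.17) were higher and none was lower, and with the mitochondrial scaling 3 were higher and 1 lower. Beside these counts, endothelial marker genes Pecam1 (5.63 ± 0.49) and Tek (4.91 ± 0.35) were also higher in Activator at induction.

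**Figure D4:**
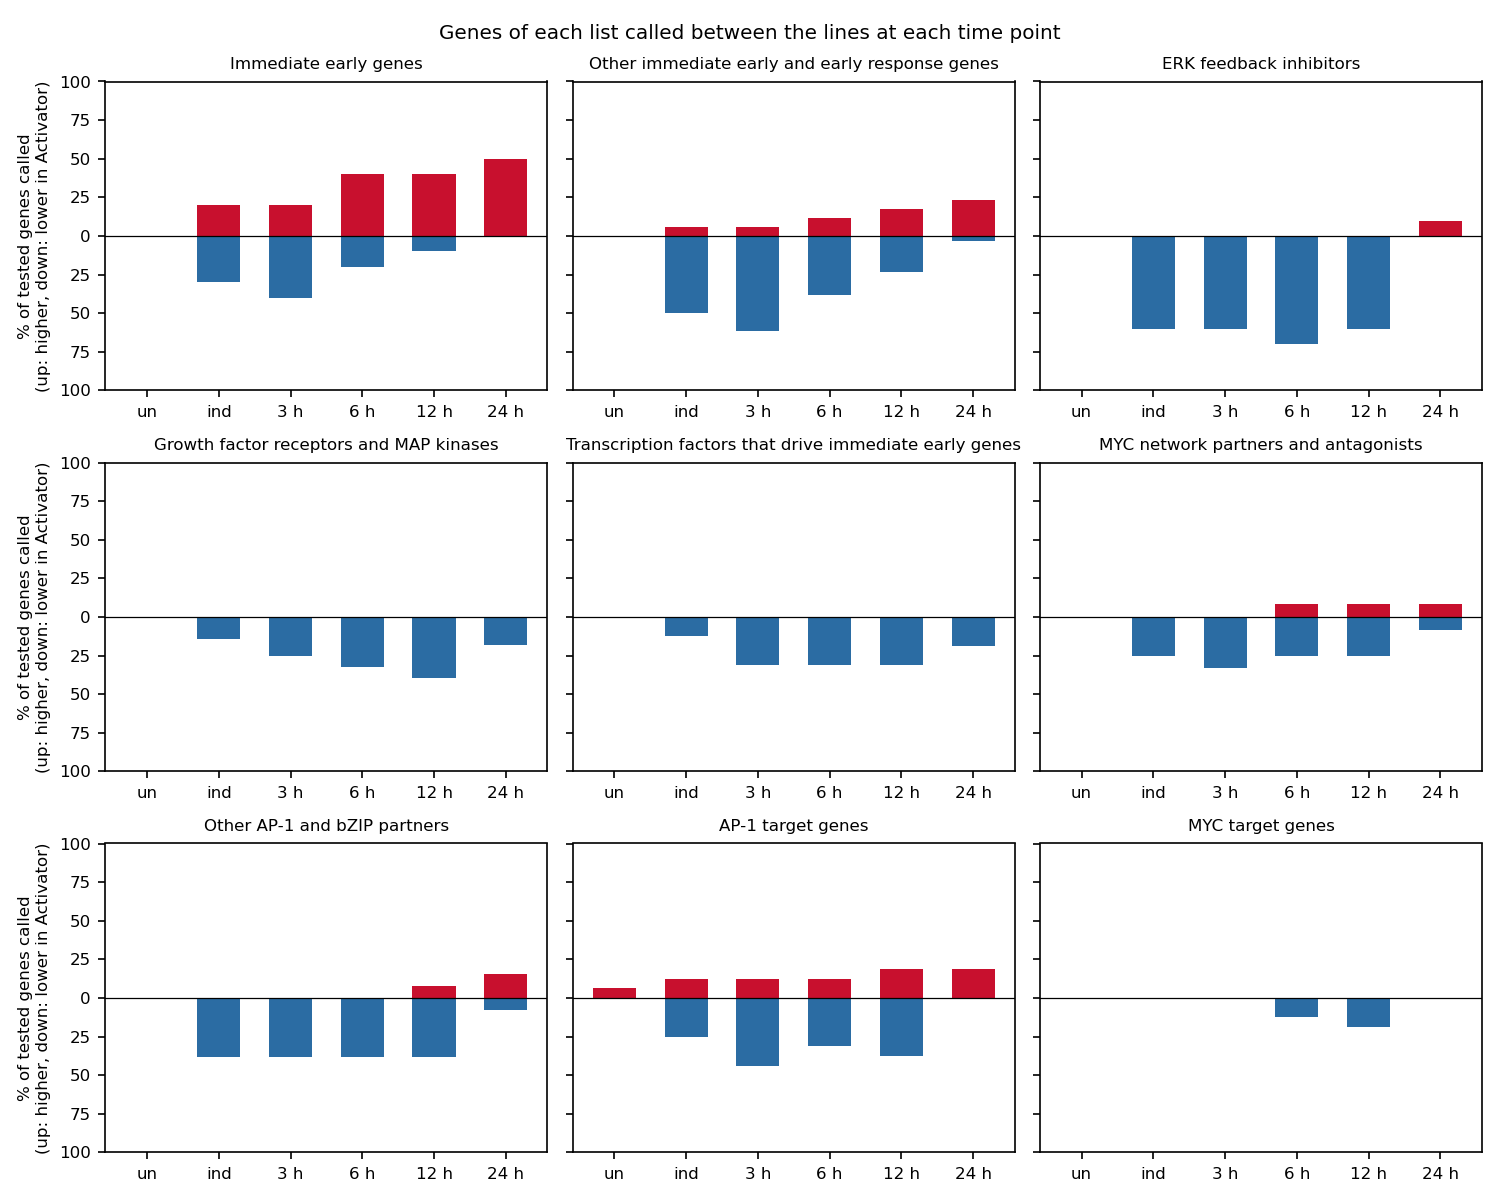
Share of the tested genes in each list that was called higher (red, upwards) or lower (blue, downwards) in Activator against Control at each time point, as a percentage of the list. At induction 17 of 34 other immediate early genes were lower and 2 higher, and at 24 h 1 was lower and 8 higher.

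The genes whose group means were most like those of a member, among 13618 genes with a mean over 100 and by Pearson r of log2 CPM over the 12 groups, are given as a description, since the groups share 2 lines and a common time course. Myc was followed by Plk2 (r = 0.997) and Irs2 (0.992), Atf3 by 2410006H16Rik (0.989) and Ppp1r15a (0.989), and Jun by Nr1d1 (0.983) and Junos. Egr1 was followed by Lonp2 (0.971) and E230016K23Rik (0.959), Fos by Abca5 (0.968) and Tcp11l2 (0.967), and Fosl1 by Cmtr2 (0.967) and Taf4b (0.960). For Egr2 these were Arid5a (0.949) and Cpeb4 (0.948), for Ier2 Btg2 (0.947) and Rasl11b (0.916), for Fosb Tmem44 (0.882) and Il6ra (0.875), and for Junb Hip1r (0.866) and Bloc1s4 (0.864). Between members the closest pairs were Fos and Egr2 (0.864), Fosl1 and Jun (0.850) and Jun and Ier2 (0.850). The lowest r between members was that of Egr1 and Myc (-0.907), which ran in opposite directions.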

How the data were processed

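RNA was measured in 36 libraries of 12 groups of 3 biological replicates. Total RNA was sequenced in pairs after ribosomal depletion with a stranded kit. The authors used STAR for alignment of the trimmed reads (GRCm38) and deposited raw counts per gene and repeat family from TEtranscripts. The annotation release, the strand setting and the treatment of multiply mapping reads are not given in the sources used here. Of 54842 genes, 54495 matched GENCODE M21, which gave the coordinates and exon lengths, and 1561 repeat families and 1 unnamed entry, which took at most 0.00452% of a library's counts, were kept out of library sizes and tests. Genes passing filterByExpr (28536) were fitted with edgeR 4.0.16 (R 4.3.3) by the robust quasi-likelihood test with TMM factors, 12 groups and the replicate number as a block, as the study's own DESeq2 design did, in 18 comparisons with Benjamini-Hochberg adjustment over the genes tested. A call needed an adjusted p under 0.05, a fold change over 2 and a mean normalised count over 100. The standard error of a fold change was obtained from its F statistic. Alternatives were DESeq2 1.42.0, other scalings, filters and limits, no block, fewer libraries and libraries left out. Promoter sequences were taken from RefSeq (GRCm38.p6).

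The members and lists were chosen with earlier results of these data known. All members were named, with at most 3 called genes per list at induction and 24 h with the largest change, and the 2 genes most like each member by r of log2(CPM + 0.1). The replicates are labelled as biological, and counts limit only the counting error. The numbers do not say that libraries of 1 number share a day or batch. The repressor line of the study was not analysed here, and the values of some list genes are not reported here.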

Additional observations from a re-analysis of the deposited data

Results flagged for a closer look

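The change since uninduced cells differed between the lines, by the interaction test in edgeR, for 26 combinations of gene and time point. The values below are Activator minus Control differences of log2 changes since uninduced, and since all of them share the uninduced libraries they are not independent of each other.

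For Myc the difference was -2.93 ± 0.33 at induction (SE, adjusted p = 1.24e-06), -3.96 ± 0.34 at 3 h, -2.66 ± 0.33 at 6 h and -1.24 ± 0.33 at 12 h (adjusted p = 0.00281). The last was under the fold limit without Activator uninduced replicate 1 (-0.97) or Activator 12 h replicate 1 (-0.99). For Egr1 it was 1.75 ± 0.28 at induction (adjusted p = 5.47e-05), 1.69 ± 0.28 at 3 h, then 2.36 ± 0.28 at 6 h, followed by 1.90 ± 0.28 at 12 h, and no single library changed these calls.

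Fosl1 differed in opposite directions early and late, by -1.20 ± 0.33 at induction (adjusted p = 0.00797), -2.38 ± 0.34 at 3 h, -1.35 ± 0.33 at 6 h and 2.59 ± 0.33 at 24 h (adjusted p = 3.46e-06). The value at induction was under the fold limit without Activator uninduced replicate 1 (-0.82) or Activator induced replicate 3 (-0.95), and that at 6 h without Activator uninduced replicate 1 (-0.99). Jun differed by -1.14 ± 0.23 at induction (adjusted p = 0.00055) and -1.25 ± 0.23 at 3 h, the first of which was at -0.96 without Activator induced replicate 3. Ier2 differed by -1.28 ± 0.29 at 3 h (adjusted p = 0.000861).

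Atf3 differed by 1.06 ± 0.32 at 6 h (adjusted p = 0.00833), 2.55 ± 0.32 at 12 h and 2.60 ± 0.32 at 24 h (adjusted p = 1.40e-06). At 6 h it was under the fold limit without Control uninduced replicate 2 (0.93) or Activator uninduced replicate 1 (0.82). Egr2 differed by 2.23 ± 0.64 at 12 h (adjusted p = 0.00527), or 1.41 (adjusted p = 0.0604) without Control uninduced replicate 1.

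Fos differed by 1.25 ± 0.39 at 3 h (adjusted p = 0.0102), 1.31 ± 0.39 at 6 h, 1.68 ± 0.39 at 12 h and 1.57 ± 0.39 at 24 h. Control uninduced replicate 1 held 10.4 CPM of Fos against 4.84 and 3.92 CPM in the other replicates, and without it the differences at 3 h and 6 h were 0.72 (adjusted p = 0.0993) and 0.77 (adjusted p = 0.0720). Fosb differed by 1.21 ± 0.41 at 6 h (adjusted p = 0.0155), 1.10 ± 0.40 at 12 h (adjusted p = 0.0237) and 1.44 ± 0.40 at 24 h. Without Control uninduced replicate 1 the first of these was 0.99 and the second 0.88. Neither was called without replicate 2 of Activator at the same time point (0.93 at 6 h and 0.97 at 12 h), and the second was not called without Control 12 h replicate 3 (0.98) or Activator uninduced replicate 2 (1.02, adjusted p = 0.0527).

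With the mitochondrial scaling 8 of the 26 were not called: Fos at 3 h (0.59), 6 h (0.57) and 12 h (1.03, adjusted p = 0.0545), Fosb at 6 h (0.51), 12 h (0.51) and 24 h (1.19, adjusted p = 0.0756), Egr2 at 12 h (1.58, adjusted p = 0.0602) and Atf3 at 6 h (0.30). Without replicate 1 of all groups 9 of the 26 were not called: Fos at 3 h (0.58), 6 h (0.77) and 24 h (0.63), Fosb at 6 h (1.13), 12 h (1.07) and 24 h (0.89), Fosl1 at 6 h (-0.93), Atf3 at 6 h (0.94) and Myc at 12 h (-0.85, adjusted p = 0.115). Fosl1 at induction was not called without replicate 2 (-1.23, adjusted p = 0.0743) or replicate 3 (-1.15, adjusted p = 0.0864) of all groups. Also not called without replicate 3 were Egr2 at 12 h (2.26, adjusted p = 0.0583), Fosb at 12 h (1.10, adjusted p = 0.0752) and Atf3 at 6 h (1.05, adjusted p = 0.0823).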

How the results depend on the processing

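Of 1620 values of the 10 genes recomputed with every library kept, 1542 stayed on the same side of the call limits, 29 lost their call, 49 gained one and no called value reversed. The 49 include 24 gained with no limit on the fold change. Under it 8 members were called in Activator against Control at 12 h and 9 at 24 h, beside 10489 and 9154 of all genes. Within Activator 7 were called from uninduced to induced, 2 from induced to 3 h and 5 from uninduced to 24 h. These stand beside 8820, 1546 and 9227 of all genes. The genes over the limit on the mean, which alone could be called, numbered 13628. Nothing particular to the members is read from these counts. With DESeq2 size factors 1 member was called in Activator from induced to 3 h, beside 177 of all genes. With the mitochondrial scaling 15 calls were lost and 10 gained. The difference of the lines from uninduced to 12 h was then called for 3 members, beside 6936 of all genes, against 4107 with TMM. The difference from induced to 3 h was called for 2 members by DESeq2, beside 102 of all genes. With only the compared libraries it was called for 1, beside 37 of all genes. The cause of these changes was not tested. Of 120 group levels, 43 moved by more than 1 SD with the mitochondrial scaling, to between 0.704 and 1.30 of the TMM level, 3 with DESeq2 size factors and 2 with library size alone.

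Of 1980 values with libraries left out, 54 lost and 39 gained a call and none reversed. This includes leaving out replicate 1, 2 or 3 of all groups, which was chosen after seeing the data. In Activator against Control the members called then numbered 0 to 1 before induction, 4 to 6 at induction, 4 to 6 at 3 h, then 5 to 7 at 6 h, followed by 5 to 6 at 12 h and 4 to 7 at 24 h. Within Activator they numbered 3 to 5 from uninduced to induced, 0 to 1 from induced to 3 h and 2 to 4 from uninduced to 24 h, and within Control 0 to 0 in each comparison. For the difference of the lines since uninduced they numbered 2 to 5 at induction, 5 to 7 at 3 h, then 2 to 6 at 6 h, followed by 4 to 6 at 12 h and 2 to 5 at 24 h, and from induced to 3 h 0 to 2. No share of all genes called is given for the fits with libraries left out. Nothing particular to the members is therefore read from these ranges.

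With no replicate block 3 calls were lost and none gained. For Egr2 this was in Activator from uninduced to 24 h, which left 2 members called. Beside them 1882 of all genes were called, against 2054 with the block. For Fosb it was in the differences since uninduced at 6 h (1.12, adjusted p = 0.0877) and 12 h (1.10, adjusted p = 0.0882). These left 5 members each, beside 3647 and 3890 of all genes, against 3792 and 4107 with the block. Deviations of libraries with the same replicate number in both lines correlated at -0.0162 to 0.499, above 0.1 in 16 of 18 pairs, and 32 of 36 libraries correlated best with their own number. Counts of 25 to 489 per library limit Egr2.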
